A study of Mus musculus with 8 samples.

Results

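The genes described here encode the proteasome, the large protease that degrades proteins marked with ubiquitin, together with its assembly factors and activators. They were taken by name: every protein-coding gene whose GENCODE M21 symbol starts with Psma, Psmb, Psmc, Psmd, Psme or Psmg, which gave 49 of 52338 genes with a value. No measured value entered the choice. Of the 49 genes, 46 had a mean of at least 1 FPKM over the 8 libraries and were tested, and 3 (Psmb8, Psmb9 and Psmb11) lay below that filter. FPKM is a level per kilobase of exon, so levels can be set beside each other between genes. By role, 7 genes encode the alpha ring, 7 the standard beta ring, 5 core subunits of immune cells, thymus or testis, 6 the ATPases and 11 the non-ATPase base and lid. A further 3 encode base assembly chaperones, 4 activators and 4 core assembly chaperones. The remaining 2 share only the prefix or copy another member: Psmc3ip, a meiotic recombination factor, and Psme2b, a near copy of Psme2.

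RNA was sequenced from mouse embryonic stem cells in 4 groups of 2 libraries. The control group was wild type by genotype and untreated. The other groups were given reagents named sh-linc1393, sd-linc1393 and dd-linc1393 after a long intergenic non-coding RNA, and are called sh, sd and dd here. The labels explain neither sd nor dd, nor which line, clone or culture a library came from. The series concerns that RNA in the maintenance of pluripotency. The level of linc1393 was not analysed here, so the treatments were not checked on their target, and since control cells were given no reagent, the target and the giving of a reagent cannot be told apart. Within a group the libraries are numbered 1 and 2, and values are given below in the order replicate 1, then replicate 2. Whether the 2 are separate cultures is not stated, and the p-values reflect no more than the difference among these libraries, part of which may be technical.

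Depth, read off the spacing of low FPKM values, was 3658366 to 20387063 reads assigned to genes per library, with control replicate 2 the shallowest. The libraries separated by replicate number before group, and the first principal component, with 78.4% of the variance over all genes tested, set the libraries numbered 1 apart from those numbered 2. All 12 stem cell markers listed were above the filter, with a summed level of 1506 to 1974 FPKM in replicate 1 and 7086 to 10175 FPKM in replicate 2. Most of that gap is Dppa5a alone, at 292 to 557 FPKM against 5866 to 8584 FPKM. Between the numbers the 12 had a median log2 difference of 0.00, with 4 higher, 1 lower and 7 not passing. Between groups, Pou5f1 (Oct4) had 83.1 and 251 FPKM in control, 24.2 and 14.7 in sh, 17.8 and 130 in sd, and 21 and 53.1 in dd, and Sox2 had 19.7 FPKM in sh replicate 2 against 291 in control replicate 2. In each of sh, sd and dd, 10 of the 12 had a difference from control above 0, with medians of 0.18, 0.42 and 0.36. Of all genes tested 65.5%, 62.9% and 53.6% were above 0, and none of the 12 passed. Of 10 fibroblast feeder markers 1 was above the filter, and their sum was 0.594 to 1.09 FPKM against 2.92 to 10.9 FPKM, with Col3a1, Postn, Lum and Dcn at 0 in every replicate 1 library. The 6 primitive endoderm markers summed to 22.9 to 28.6 FPKM against 1.66 to 8.34 FPKM, and the 6 blood and immune markers to 0.261 to 3.06 FPKM against 2.73 to 8.35 FPKM, with Lyz2 at 0 in every replicate 1 library. Trophoblast markers summed to 8.22 to 11.7 against 14.4 to 21.3 FPKM, neuroectoderm markers to 1.71 to 2.76 against 3.19 to 6.21 FPKM, and mesoderm markers to 1.78 to 4.12 against 2.37 to 9.79 FPKM. The part of any of these in the proteasome values was not tested. In such bulk samples fewer cells of a type and less RNA per cell cannot be told apart.

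The proteasome has a barrel-shaped core of stacked rings, in which alpha subunits form the gate and beta subunits the chamber. Of the beta subunits Psmb5, Psmb6 and Psmb7 carry the active sites, with chymotrypsin-like, caspase-like and trypsin-like activity, and immune cells replace them with Psmb8, Psmb9 and Psmb10. The regulatory particle caps the core: its ATPases unfold the substrate, and its lid holds the deubiquitinase Psmd14. When proteasome activity falls, the factor Nfe2l1 (Nrf1) raises subunit genes together through antioxidant response elements in their promoters.

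Several member genes have near copies in the genome, which matters for what their values can mean. Psme2b matched Psme2 at 715 of the 720 bases of the Psme2 reading frame (99.3%), and 78.4% of the 31-base stretches of Psme2b occurred in the transcripts of another gene. The stretch from base 484 to base 543 of the reading frame holds 3 of the 5 differences, and is shown from the GRCm38 transcripts with the differing bases in capitals.
Psme2: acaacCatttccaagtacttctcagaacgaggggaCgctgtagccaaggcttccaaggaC
Psme2b: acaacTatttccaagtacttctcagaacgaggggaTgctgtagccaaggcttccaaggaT
A second pair is less alike. The processed pseudogene Psmb6-ps2 on chromosome 1 (101385886 to 101386590, GRCm38) matched Psmb6 at 661 of 704 aligned bases (93.9%), and the stretch from base 470 to base 529 of the Psmb6 reading frame shows 9 of the 43 differences in capitals.
Psmb6: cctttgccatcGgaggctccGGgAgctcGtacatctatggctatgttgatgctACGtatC
Psmb6-ps2: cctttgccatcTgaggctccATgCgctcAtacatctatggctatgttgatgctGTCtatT
Of the 31-base stretches of Psmb6, 6.24% occurred in another gene. Reads of a gene and of its copy may also have been split for Psmb5 (71.7% of stretches shared, mostly with the pseudogene Gm3375), Psma5 (61.0%, with Gm8394), Psme2 (33.5%), Psmc1 (32.2%), Psmd2 (31.6%), Psma4 (21.8%), Psmb3 (21.7%), Psma3 (20.3%) and Psmd11 (15.8%). Their values are uncertain to that extent. Psmd9 (26.6%) and Psmc3ip (19.0%) shared stretches most often with Gm26745 and Mlx, genes that overlap them on the other strand. Other members also overlap genes on the other strand, among them Psmb7 (Nek6), Psmb8 (Gm20496), Psmb9 (Tap1), Psmc3 (Slc39a13) and Psmd13 (Sirt3). Whether reads were counted by strand is not given in the sources used here.

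Promoter sequence was searched because subunit genes are known to share regulation. Of the 49 genes, 41 matched a RefSeq promoter window (GRCm38.p6), of which the 250 bases before the start were searched on both strands. The antioxidant response element (TGACNNNGC) occurred in 5 of these genes, or 12.2%, against 11.5% of the 27025 genes with a window. These were Psmb5, Psmb6, Psmc6, Psmd12 and Psmd9. The first 4 include a pair of active-site subunits and 2 of the genes with the smallest p in dd or sd below, so the stretch around each match is shown 5′ to 3′ along the gene, with the match in capitals.
Psmb5 (chr14:54618009-54618067, minus strand): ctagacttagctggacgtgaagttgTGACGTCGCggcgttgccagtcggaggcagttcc
Psmb6 (chr11:70525323-70525356, plus strand): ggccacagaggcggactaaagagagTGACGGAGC
Psmc6 (chr14:45329574-45329630, plus strand): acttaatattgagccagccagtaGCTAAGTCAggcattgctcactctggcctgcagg
Psmd12 (chr11:107479278-107479314, plus strand): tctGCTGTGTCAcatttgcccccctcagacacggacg
In Psmb5 and Psmb6 the match reads along the gene, and in Psmc6 and Psmd12 it lies on the other strand. The CCAAT box (CCAAT) occurred in 36.6% of the members matched and 37.5% of all genes, the GC box (GGGCGG) in 53.7% and 35.4%, and the interferon-stimulated response element (GAAA, any 2 bases, then GAAA) in 7.32% and 3.46%. Each motif was counted on its own, so matches of different motifs can overlap. A match is a description of the letters and not a measured binding site.

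Levels of the standard core spanned a wide range within each library, although each subunit is present in equal copies in the assembled particle. The plot of FPKM by class shows all tested genes in all libraries.

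**Figure D1:**
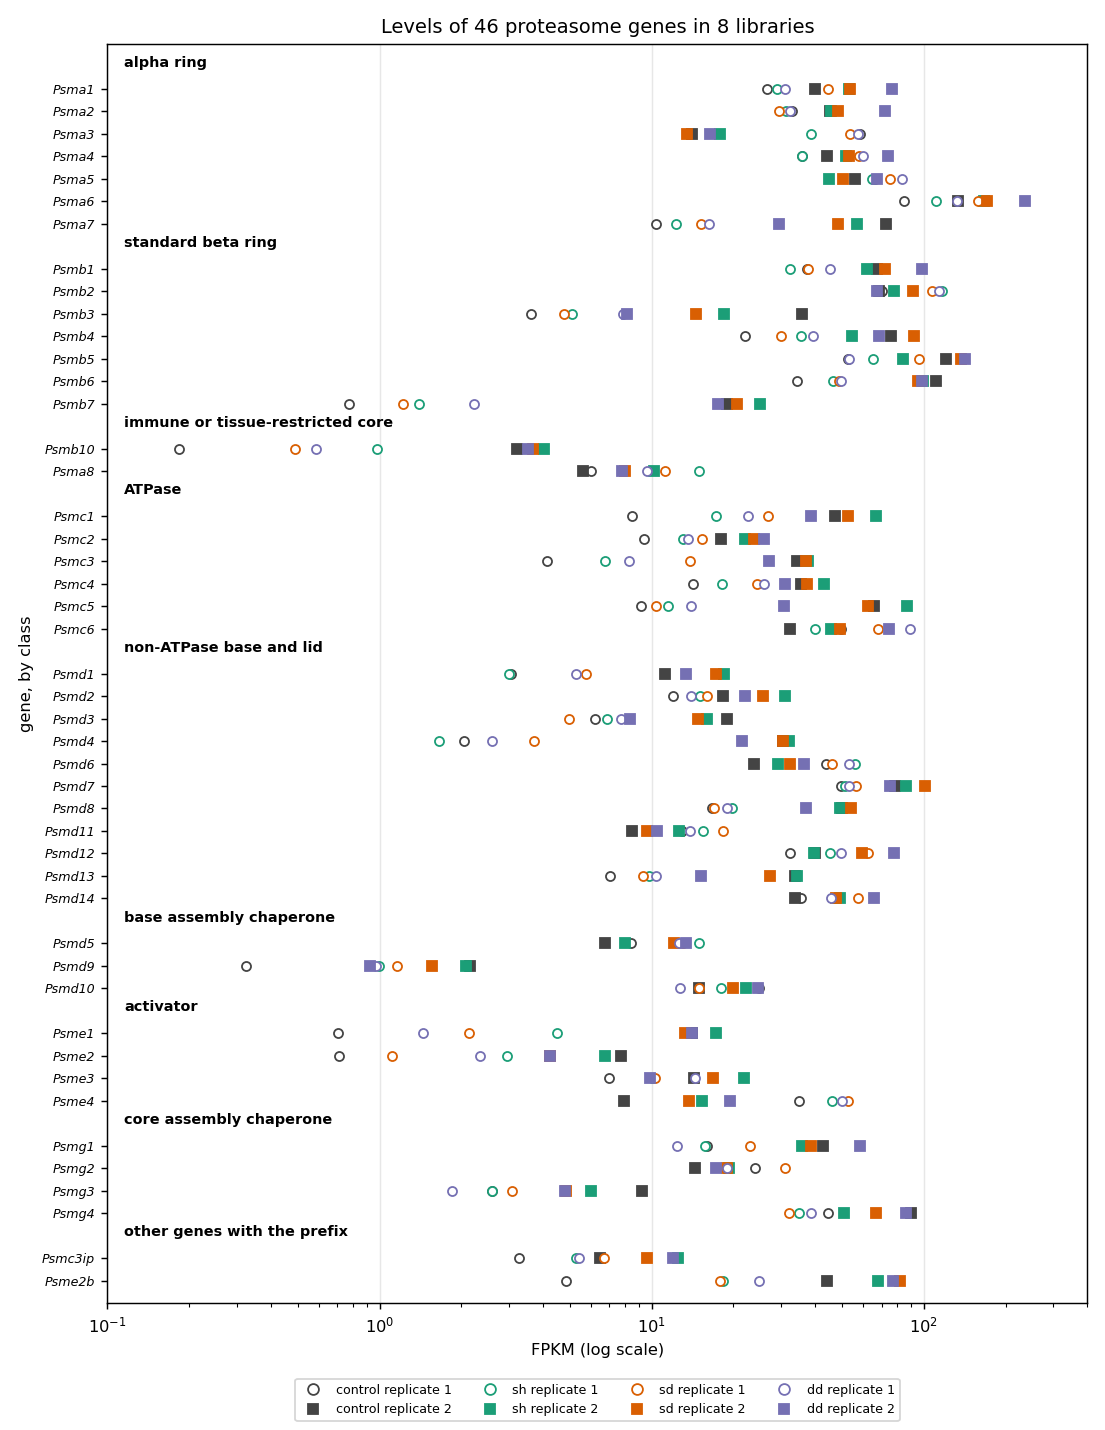
FPKM of the 46 tested genes in 8 libraries, on a log axis, grouped by role (the group "other genes with the prefix" holds Psmc3ip and Psme2b). Open circles are replicate 1 and filled squares replicate 2, coloured by group. Psmb7, Psmd4 and Psme1 have the widest gaps between circles and squares, and Psma3 and Psme4 have their circles above their squares.

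In the alpha ring, which forms the gate, Psma6 was the highest member and Psma7 the lowest. Psma6 (chromosome 12, 55384222 to 55418454, GRCm38) had 84.8 and 134 FPKM in control, 111 and 167 in sh, 158 and 171 in sd, and 133 and 236 in dd. Psma7 had 10.4 and 72.9 FPKM in control, 12.3 and 56.9 in sh, 15.2 and 48.5 in sd, and 16.2 and 29.3 in dd. Every replicate 2 library of Psma7 was above every replicate 1 library, whereas the ranges of Psma6 overlapped. Psma3 had 58.4 and 14.1 FPKM in control, 38.4 and 17.8 in sh, 53.4 and 13.5 in sd, and 57.4 and 16.4 in dd, the opposite order, again without overlap. Psma5 had 66.1 and 55.7 FPKM in control, 64.5 and 45 in sh, 75.5 and 50.7 in sd, and 83.0 and 67.6 in dd, with overlapping ranges between the numbers. The other alpha subunits, Psma1, Psma2 and Psma4, had mean levels of 31.4 to 47.3 FPKM over replicate 1 and 52.8 to 55.8 FPKM over replicate 2.

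In the standard beta ring, Psmb5 had the highest mean and Psmb7 the lowest, and both carry active sites. Psmb5 (chromosome 14, 54614119 to 54618022) had 52.9 and 121 FPKM in control, 65.3 and 84.1 in sh, 96.1 and 137 in sd, and 53.1 and 142 in dd. Psmb6 (chromosome 11, 70525367 to 70527858) had 34.3 and 111 FPKM in control, 46.5 and 99.3 in sh, 48.7 and 95.1 in sd, and 49.6 and 98.3 in dd. Psmb6 was the steadiest of them across groups, with 44.8 FPKM (SD 7.10, n = 4) over replicate 1 and 101 FPKM (SD 6.73, n = 4) over replicate 2. Psmb7 (chromosome 2, 38588036 to 38644087) had 0.775 and 19.0 FPKM in control, 1.4 and 25 in sh, 1.22 and 20.6 in sd, and 2.23 and 17.5 in dd. It was the lowest core subunit of all 4 replicate 1 libraries, at a mean of 1.41 FPKM (SD 0.608, n = 4) against 20.5 FPKM (SD 3.25, n = 4) over replicate 2. Psmb3, a non-catalytic beta subunit, had 3.59 and 35.8 FPKM in control, 5.10 and 18.5 in sh, 4.77 and 14.6 in sd, and 7.83 and 8.15 in dd. Its libraries were apart between the numbers, narrowly so in dd. Psmb1, Psmb2 and Psmb4 had means of 31.6 to 102 FPKM over replicate 1 and 72.7 to 76.2 FPKM over replicate 2.

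The core therefore had a different order of subunits in each replicate number. By the mean of deposited FPKM, Psma6 ranked first of 14 in both. Psma3 ranked 5 in replicate 1 and 14 in replicate 2, Psma5 ranked 3 and 9, and Psmb6 ranked 7 and 3. The highest over the lowest subunit for replicate 1 was 109 (control), 83.2 (sh), 129 (sd) and 59.6 (dd), and 9.51, 9.38, 12.7 and 29.0 for replicate 2. The lowest subunit was Psmb7 in each replicate 1 library, Psma3 in replicate 2 of control, sh and sd, and Psmb3 in dd replicate 2. Per kilobase of the main transcript, which leaves out exons of other transcripts, the span was 43.9, 39.5, 51.9 and 24.4 for replicate 1 and 13.4, 9.59, 12.1 and 12.5 for replicate 2. Psmb7 was still lowest in each replicate 1 library, and Psma3 was lowest in each replicate 2 library, dd included. The highest was then Psmb6 in replicate 2 of control, sh and sd, Psmb2 in sh and dd replicate 1, and Psma6 in the other 3 libraries. The summed level of the 14 subunits was 536 and 904 FPKM in control, 625 and 859 in sh, 759 and 962 in sd, and 724 and 1071 in dd, a ratio of 1.44 between the numbers. That ratio turned with the scaling, to 0.834 when the libraries were quantile normalized and to 0.931 with median ratio scaling. The coefficient of variation over subunits averaged 74.1% in replicate 1 and 65.5% in replicate 2, and this order was lost when recovered reads were taken per kilobase of the main transcript, at 57.7% and 58.2%. These are descriptions over genes and not tests.

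The immune and tissue-restricted core subunits were low. Psmb10 (chromosome 8, 105935735 to 105938444) had 0.183 and 3.21 FPKM in control, 0.982 and 4.03 in sh, 0.490 and 3.66 in sd, and 0.582 and 3.51 in dd. Psmb9 had 0 and 2.24 FPKM in control, 0 and 1.11 in sh, 0 and 0.693 in sd, and 0.0285 and 0.348 in dd. Psmb8 had 0 and 0.485 FPKM in control, 0 and 0.677 in sh, 0 and 0.423 in sd, and 0 and 0.0290 in dd. All replicate 2 libraries of Psmb10 and Psmb9 were above all replicate 1 libraries. Psmb8 had 6, 32, 22 and 2 reads in control, sh, sd and dd replicate 2 and none in replicate 1. A count of 0 allows up to 3 reads, or 0.138, 0.0646, 0.0436 and 0.0463 FPKM of Psmb8 in control, sh, sd and dd replicate 1, counting error only. The dd replicate 2 value of Psmb8 lies below all 4 limits, so it cannot be placed above replicate 1. The thymus subunit Psmb11 had 0 and 1.20 FPKM in control, 0.0152 and 0.598 in sh, 0 and 0.435 in sd, and 0 and 0.0102 in dd.

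Together Psmb8, Psmb9 and Psmb10 made up 0.207% to 0.860% of the summed level of the 6 catalytic genes in replicate 1 and 1.48% to 2.72% in replicate 2. Low values of genes that belong to other tissues also differed between the replicate numbers. Of 1135 olfactory receptor genes, a value above 0 was found in replicate 1 for 5.29% (control), 7.67% (sh), 8.19% (sd) and 7.84% (dd), and in replicate 2 for 86.4%, 97.8%, 96.5% and 50.4%. Their part in the values of Psmb8, Psmb9 and Psmb11 was not tested.

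**Figure D2:**
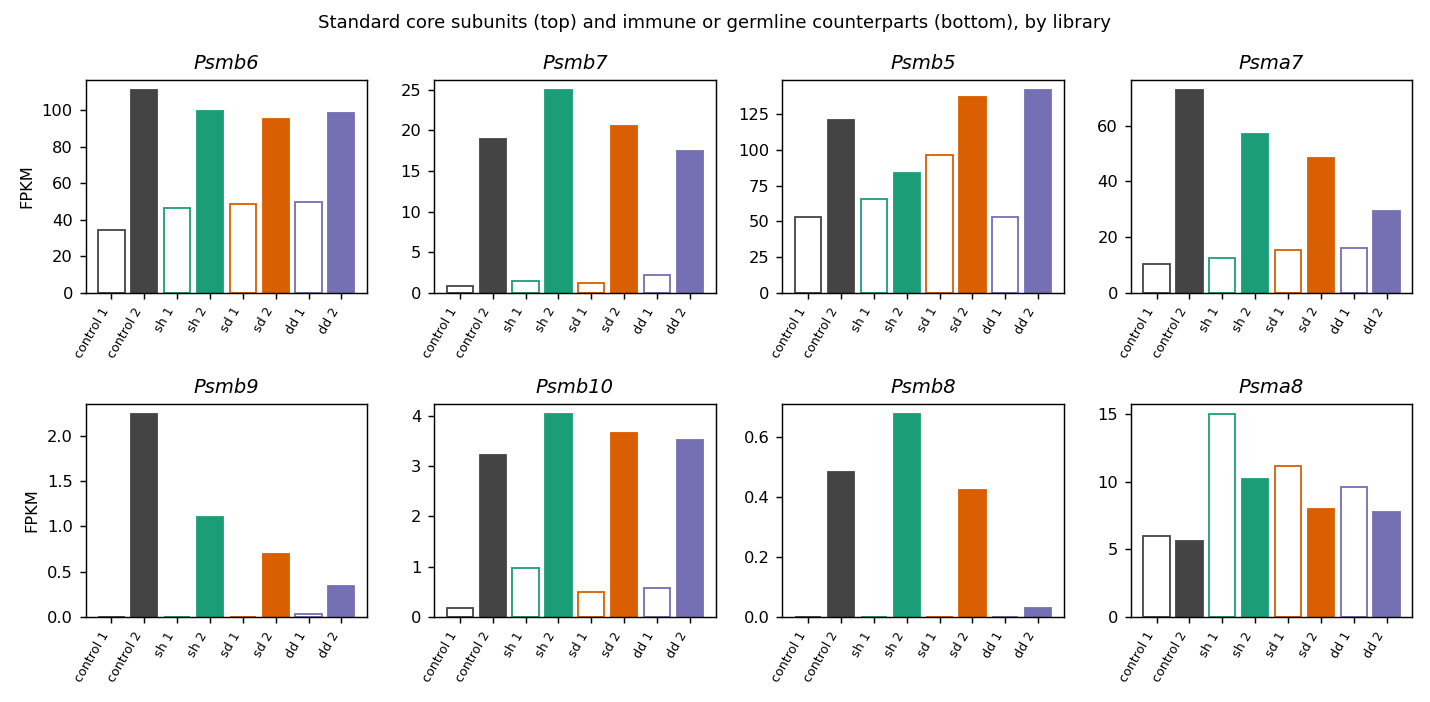
FPKM per library (bars from 0, linear axes) of the standard subunits Psmb6, Psmb7, Psmb5 and Psma7 (top) and their immune or testis counterparts Psmb9, Psmb10, Psmb8 and Psma8 (bottom). Each panel has its own axis: Psmb5 reaches 142 FPKM and Psmb10 4.03 FPKM, and Psma8 is lowest in the control libraries.

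Psma8, the alpha subunit of the testis proteasome, had the highest mean level of the restricted subunits. Psma8 (chromosome 18, 14706151 to 14762301) had 6.0 and 5.59 FPKM in control, 15 and 10.2 in sh, 11.2 and 7.99 in sd, and 9.63 and 7.79 in dd. All 6 treated libraries were above both control libraries, and the replicate numbers overlapped. The share of all genes with that order is not given here, so nothing particular to Psma8 is read from the order. The counts behind these levels were 96 and 51 reads in control and 306 to 569 reads in the treated libraries. The control mean was 5.79 FPKM (SD 0.290, n = 2) and the sh mean 12.6 FPKM (SD 3.36, n = 2). In its standard counterpart Psma7, the treated replicate 1 libraries (12.3, 15.2 and 16.2 FPKM in sh, sd and dd) were above that of control (10.4). The treated replicate 2 libraries of Psma7 were all below that of control. Of the stretches of Psma8, 0.273% occurred in another gene.

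Among the ATPases, which unfold substrates and open the gate, Psmc6 had the highest mean and Psmc2 the lowest. Psmc6 (chromosome 14, 45329788 to 45349705) had 49.7 and 32.2 FPKM in control, 39.8 and 45.6 in sh, 67.9 and 49.3 in sd, and 88.8 and 74.8 in dd. Both dd libraries of Psmc6 were above all other libraries, an order whose share among all genes is not given here. Psmc2 had 9.36 and 18.0 FPKM in control, 13.1 and 22.0 in sh, 15.3 and 23.8 in sd, and 13.6 and 25.9 in dd. Within each number, every treated library of Psmc2 was above the control library. Psmc5 had 9.17 and 65.5 FPKM in control, 11.5 and 86.8 in sh, 10.4 and 62.5 in sd, and 14 and 30.6 in dd, with no overlap between the numbers. Psmc1, Psmc3 and Psmc4 had means of 8.28 to 20.7 FPKM over replicate 1 and 33.9 to 51.3 FPKM over replicate 2.

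In the base and lid, Psmd7, a lid partner of the deubiquitinase, was highest and Psmd1, a large scaffold of the base, lowest. Psmd7 had 49.5 and 78.2 FPKM in control, 51.3 and 86.2 in sh, 56.5 and 101 in sd, and 53.0 and 75.3 in dd. Psmd1 had 3.05 and 11.2 FPKM in control, 3.0 and 18.5 in sh, 5.76 and 17.3 in sd, and 5.28 and 13.4 in dd. Psmd4 (chromosome 3, 95032694 to 95042614), a ubiquitin receptor, had 2.05 and 30.3 FPKM in control, 1.66 and 32.0 in sh, 3.69 and 30.3 in sd, and 2.60 and 21.5 in dd. The replicate numbers were apart for each of these 3 genes.

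Psmd6 and Psmd11, both lid subunits, were higher in replicate 1. Psmd6 had 43.6 and 23.7 FPKM in control, 55.8 and 29.1 in sh, 46.1 and 32.2 in sd, and 53.1 and 36.3 in dd. Psmd11 had 12.9 and 8.44 FPKM in control, 15.5 and 12.6 in sh, 18.3 and 9.59 in sd, and 13.9 and 10.5 in dd. Psmd12, a further lid subunit, overlapped between the numbers, with 32.2 and 39.9 FPKM in control, 45.1 and 39.7 in sh, 62.7 and 59.2 in sd, and 49.5 and 77.8 in dd. Its sd and dd libraries were all above both control libraries, again without a share of all genes to set beside it. Psmd3, also of the lid, had 6.18 and 19.0 FPKM in control, 6.86 and 16 in sh, 4.96 and 14.8 in sd, and 7.69 and 8.36 in dd. The remaining base and lid genes, Psmd2, Psmd8, Psmd13 and Psmd14, had means of 9.13 to 46.2 FPKM over replicate 1 and 24.2 to 49.2 FPKM over replicate 2.

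The base assembly chaperones guide the ATPase ring together and leave the finished particle. Psmd10 had 24.9 and 14.9 FPKM in control, 18.0 and 22.3 in sh, 14.9 and 20 in sd, and 12.7 and 24.7 in dd, with no steady order. Psmd9 had 0.323 and 2.15 FPKM in control, 0.994 and 2.08 in sh, 1.16 and 1.56 in sd, and 0.972 and 0.920 in dd, close to the filter. Psmd5 had 8.39 and 6.77 FPKM in control, 15 and 7.97 in sh, 13.1 and 12.1 in sd, and 12.6 and 13.4 in dd. Each Psmd5 value in a treated library was above that of the control library of the same number.

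The core assembly chaperones work in pairs to build the alpha ring. Psmg4 had 44.4 and 90.1 FPKM in control, 34.9 and 51.1 in sh, 32.1 and 66.8 in sd, and 38.4 and 86.0 in dd. It was the only tested member below control in all 6 comparisons within a number. Psmg3 had 2.59 and 9.26 FPKM in control, 2.59 and 6.01 in sh, 3.07 and 4.86 in sd, and 1.84 and 4.82 in dd. Psmg1 and Psmg2 had means of 16.8 and 23.2 FPKM over replicate 1 and 43.8 and 17.4 FPKM over replicate 2.

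The activators open the core without the ATPase cap. Psme1, which pairs with Psme2 and is induced by interferon in immune settings, had 0.706 and 14.1 FPKM in control, 4.48 and 17.2 in sh, 2.14 and 13.3 in sd, and 1.44 and 14.1 in dd. Psme2 had 0.707 and 7.75 FPKM in control, 2.93 and 6.74 in sh, 1.11 and 4.24 in sd, and 2.34 and 4.25 in dd. Psme1 and Psme2 were both higher in all replicate 2 libraries. Psme3, the nuclear activator, had 6.98 and 14.3 FPKM in control, 10 and 21.8 in sh, 10.3 and 16.8 in sd, and 14.4 and 9.90 in dd, and overlapped. Psme4 (chromosome 11, 30771726 to 30880361), the large nuclear activator, had 34.8 and 7.89 FPKM in control, 45.9 and 15.3 in sh, 52.8 and 13.7 in sd, and 50.1 and 19.4 in dd. It ran against Psme1, with every replicate 1 library above every replicate 2 library.

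Of the genes that share the prefix only, Psme2b (chromosome 11, 48945354 to 48946190) had 4.84 and 44.1 FPKM in control, 18.3 and 67.8 in sh, 17.9 and 81.6 in sd, and 24.9 and 76.9 in dd. It was above Psme2 in every library, although the sequences shown above leave few positions to tell them apart. Psmc3ip had 3.26 and 6.47 FPKM in control, 5.28 and 12.5 in sh, 6.70 and 9.59 in sd, and 5.43 and 12 in dd. In both genes each treated library was above the control library of its number.

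The comparison of each treated group with control asked whether giving the reagent moved the proteasome genes. No member passed the test in sh, sd or dd against control (0 of 46 each, limma on log2(FPKM + 1), adjusted p under 0.05), where 0% of the 14561 genes tested passed. At an unadjusted p under 0.05 the count over all genes was 32 in sh, 50 in sd and 83 in dd, and 0 members in each. On recovered reads with voom weights no gene passed either, and 7, 11 and 24 genes had an unadjusted p under 0.05. Between the treated groups, sd against sh, dd against sh and dd against sd also gave 0 of 46 members at a background of 0%, with 13, 14 and 8 genes at an unadjusted p under 0.05. These fits left the spread between replicate numbers in the error, so a difference of the size seen here could be missed. With the replicate number as a block, no gene passed in any of these comparisons either.

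The differences that came nearest to the test were these, as log2(FPKM + 1), a scale on which changes of low genes are understated. In sh, Psma8 had a difference of 0.98 (SE 0.52, limma adjusted p = 1.0, unadjusted p = 0.105), Psmc3ip 0.71 (SE 0.68) and Psmd5 0.49 (SE 0.55). On the lower side of sh were Psmg4 at -0.57 (SE 0.77), Psmg3 at -0.27 (SE 0.74) and Psma5 at -0.17 (SE 0.62). In sd, the higher side was led by Psmd12 at 0.75 (SE 0.59), Psmd5 at 0.67 (SE 0.55) and Psma8 at 0.63 (SE 0.52). The lower side of sd held Psmg4 at -0.44 (SE 0.77), Psmg3 at -0.31 (SE 0.74) and Psmb3 at -0.45 (SE 1.14). In dd, Psmc6 had 1.01 (SE 0.61, limma adjusted p = 1.0, unadjusted p = 0.143), Psmd5 0.71 (SE 0.55) and Psmd12 0.77 (SE 0.59). On the lower side of dd were Psmg3 at -0.58 (SE 0.74), Psmd3 at -0.41 (SE 0.80) and Psmb3 at -0.53 (SE 1.14). On the lower side some signs turned when 1 library was left out. With the replicate block, the differences without control replicate 2 were 0.06 for Psmg3 in sh, 0.03 for Psmg3 and 0.52 for Psmb3 in sd, and 0.44 for Psmb3 in dd. Without sd replicate 2 Psmg3 was at 0.01 in sd, and without dd replicate 2 Psmd3 was at 0.20 and Psmb3 at 0.46 in dd. With the block Psmg3 stayed below 0 in dd (-0.92 to -0.24), as did Psmg4 in sh (-0.84 to -0.31) and in sd (-0.51 to -0.37), and Psma5 in sh (-0.27 to -0.06). Without the block, where unequal replicate numbers are compared, Psmg3 in dd, Psmg4 in sd and Psma5 in sh also turned, at most to 0.18, 0.08 and 0.09, and Psmg4 in sh did not.

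As a group the members had a median difference of 0.27 in sh, 0.34 in sd and 0.26 in dd, beside 0.15, 0.17 and 0.06 over all genes tested. The difference was above 0 for 34 (73.9%), 37 (80.4%) and 34 (73.9%) of the 46 members, beside 65.5%, 62.9% and 53.6% of all genes. These comparisons share the control libraries. With quantile normalization the members' medians were 0.17, 0.15 and 0.19, beside 0.04, 0.04 and 0.05 over all genes, and 31, 30 and 31 members were above 0. With median ratio scaling they were 0.12, 0.17 and 0.26, beside 0.03, 0.03 and 0.05, and 26, 30 and 34 members were above 0. Of all genes, 52.7% to 53.9% were above 0 under these scalings. Among genes with a mean of at least 5 FPKM the members' medians were 0.25, 0.36 and 0.31, beside 0.19, 0.27 and 0.23. Control replicate 1 and control replicate 2 each moved these medians: with the replicate number as a block, they were 0.14, 0.21 and 0.13 without replicate 1 and 0.42, 0.47 and 0.43 without replicate 2. Without the block, leaving out control replicate 1 turned them to -0.32, -0.17 and -0.27, and leaving out sh or dd replicate 2 turned the sh and dd medians to -0.16 and -0.07. Without sd replicate 2 the sd median was 0.09. Without control replicate 2 the medians were 0.74, 0.84 and 0.74, and without the replicate 1 library of the treated group 0.59, 0.65 and 0.60. With the block, the dd median without dd replicate 1 was 0.16. In such fits the replicate numbers on the 2 sides are unequal.

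Within each replicate number, the members' median difference from control was 0.34 and 0.24 in sh, 0.50 and 0.16 in sd, and 0.51 and 0.22 in dd, for numbers 1 and 2. Over all genes it was 0.10 and 0.20 in sh, 0.31 and 0.03 in sd, and 0.28 and -0.13 in dd. In sh 24 of 46 members (52.2%) were higher than control in both numbers, at a background of 35.2% of all genes. In sd it was 30 members (65.2%) at a background of 37.5%, and in dd 20 members (43.5%) at a background of 31%. Lower in both numbers were 4, 3 and 2 members, at backgrounds of 10.6%, 12.7% and 15.1%.

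A set of 14 members (30.4%) was higher than control in all 6 comparisons, beside 15% of all genes, and Psmg4 was lower in all 6, beside 3.66%. The 14 were Psma1, Psma4, Psma6, Psma8, Psmb10, Psmc2, Psmd2, Psmd5, Psmd6, Psmd11, Psmd14, Psme4, Psmc3ip and Psme2b. Psma6, Psma8, Psmc2, Psme4, Psmc3ip and Psme2b, 6 genes in all, kept this order under quantile normalization and median ratio scaling too. Under these scalings 8 members (17.4%) and 12 members (26.1%) were higher in all 6, at backgrounds of 11.6% and 10.8%, and Psmg4 was not lower in all 6 under either. The alpha ring genes Psma1 and Psma4 were then no longer among them, while Psmb2 was under both and Psmb7 under median ratio scaling. Lower in all 6 was Psmg3 under the first, at a background of 8.63%, and Psmg3 and Psmd3 under the second, at a background of 6.05%. The largest of these differences was that of Psme2b, at 1.17 in sh, 1.28 in sd and 1.47 in dd (SE 1.32). With the replicate block its limma adjusted p was 0.999, 0.723 and 0.553.

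**Figure D3:**
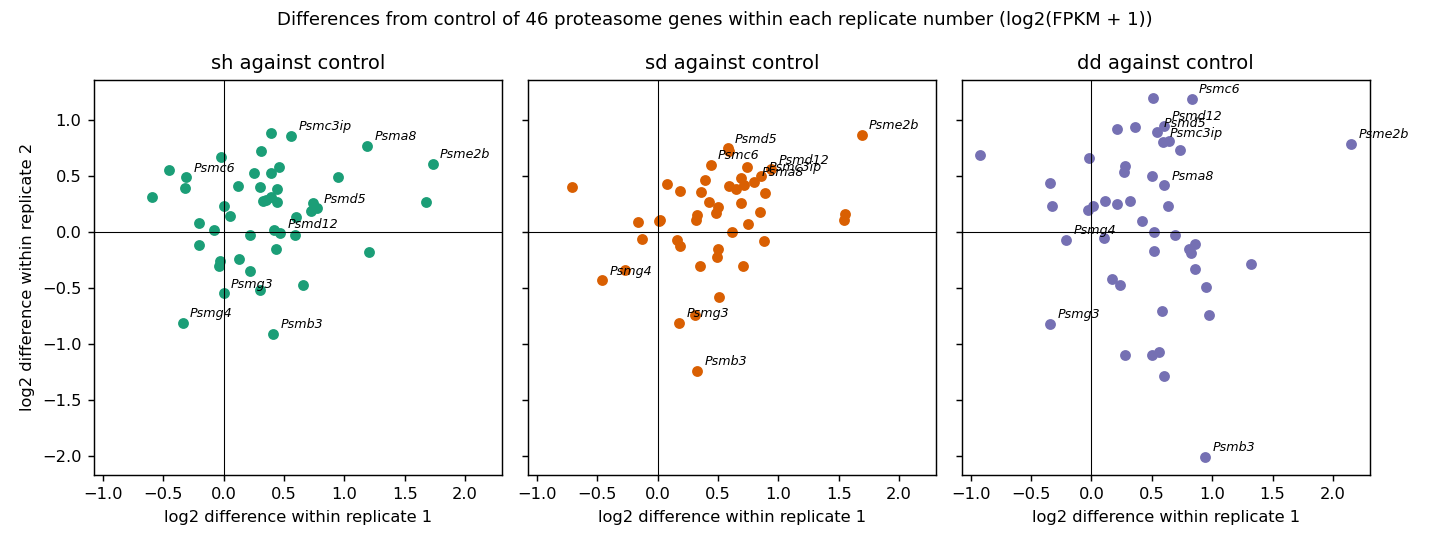
Difference from control in log2(FPKM + 1) within replicate 1 (horizontal) and within replicate 2 (vertical) for the 46 tested members in sh, sd and dd, 1 point a gene. Points in the upper right quadrant are higher than control in both numbers: 24 in sh, 30 in sd and 20 in dd. Psmb3 lies far below 0 on the vertical axis in dd, at -2.01 against 0.94 within replicate 1.

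The difference between replicate numbers was far larger than that between groups. With the group as covariate, 32 of 46 members differed between replicate 2 and replicate 1 by limma (adjusted p under 0.05), at a background of 61.3% of all genes, so the members' share of calls was near that of any genes. They split into 29 higher, at a background of 46.6%, and 3 lower, at a background of 14.6%. Psmb7 was higher in replicate 2 by 3.18 (SE 0.27, limma adjusted p = 2.08e-05) and Psmd4 was higher by 3.09 (SE 0.27, limma adjusted p = 2.43e-05). Psme1 was higher by 2.42 (SE 0.30, limma adjusted p = 1.48e-04) and Psmc5 by 2.27 (SE 0.32, limma adjusted p = 3.62e-04). On the lower side, Psme4 had a difference of -1.68 (SE 0.24, limma adjusted p = 3.77e-04), Psma3 of -1.68 (SE 0.25, limma adjusted p = 4.99e-04) and Psmd6 of -0.70 (SE 0.23, limma adjusted p = 0.0233). Psmd11, the fourth on that side, had -0.52 (SE 0.24, limma adjusted p = 0.0899). Psmd6 no longer passed when a library of sh or of sd was left out, at -0.63 and -0.77.

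By role, 6 of 7 standard beta ring genes and 5 of 6 ATPases were higher in replicate 2, with Psmb2 (-0.40) and Psmc6 (-0.28) not passing. In the alpha ring 3 of 7 were higher and Psma3 was lower, and in the base and lid 7 of 11 were higher and Psmd6 lower. Of the 4 activators Psme1 and Psme2 were higher and Psme4 lower, and of the 4 core assembly chaperones Psmg1, Psmg3 and Psmg4 were higher. No base assembly chaperone passed. Of the 2 tested immune or tissue-restricted core genes Psmb10 was higher, and of the 2 other genes with the prefix, Psmc3ip and Psme2b, both were higher. The class medians ran from 0.22 in the base assembly chaperones to 1.49 in these other genes with the prefix. The standard beta ring came next at 1.17, beside 0.84 over the 46 members and 0.73 over all genes.

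Rescaling changed these counts. Quantile normalization took the median over all genes to 0.02 and median ratio scaling to 0.24, and the members' medians to 0.27 and 0.20. Each left 14 members higher and 10 lower. Of the standard beta ring 2 of 7 were then higher and 1 lower under each, of the ATPases 3 of 6 and 1, of the alpha ring 1 of 7 and 2, and of the base and lid 4 of 11 and 2. Of the core assembly chaperones 1 was higher under quantile normalization and 0 under median ratio scaling, with 1 lower under each. The background was 27.6% higher and 29.8% lower under quantile normalization, and 34.3% and 24.9% under median ratio scaling. Under all 3 scalings 13 members were called higher, among them Psmb7, Psmd4, Psme1, Psmc5, Psma7 and Psmb10, and Psma3, Psmd6 and Psme4 were called lower. No member was called in opposite directions, and 8 changed sign, Psma4, Psma6, Psmd7, Psmd12, Psmd14, Psmd9, Psmd10 and Psme3. Over all 49 genes, the replicate 2 libraries lay above the replicate 1 libraries without overlap in 28 by their listed values, Psmb8 included (26 of them tested, at a background of 41.9%), below them in 4 (background 14.2%), and overlapped in 17.

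The size of this difference moved with base composition. Across the 46 members it had a Pearson r of 0.57 and a Spearman rho of 0.61 with the GC content of the main transcript, and across 9935 protein-coding genes tested 0.40 and 0.47. Each gene's difference comes from the same 8 libraries, so the points are not independent. The 11 members with under 45% GC, which include Psma3 and Psme4, had a median difference of 0.17, beside -0.41 over all such genes. The 14 members from 45% to 50% had 0.61, beside 0.00. The 14 members from 50% to 55%, which include Psmd4, Psme1 and Psmc5, had 1.34, beside 0.59. The 7 members at 55% or more had 1.03, beside 1.07. All 7 were called higher on the deposited scale, and the share of all such genes called is not given here. Under quantile normalization and median ratio scaling, only Psmb10 and Psmc3 of these were called higher. Psmb7 lies in the class from 45% to 50%. The part of GC content in the difference was not tested.

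**Figure D4:**
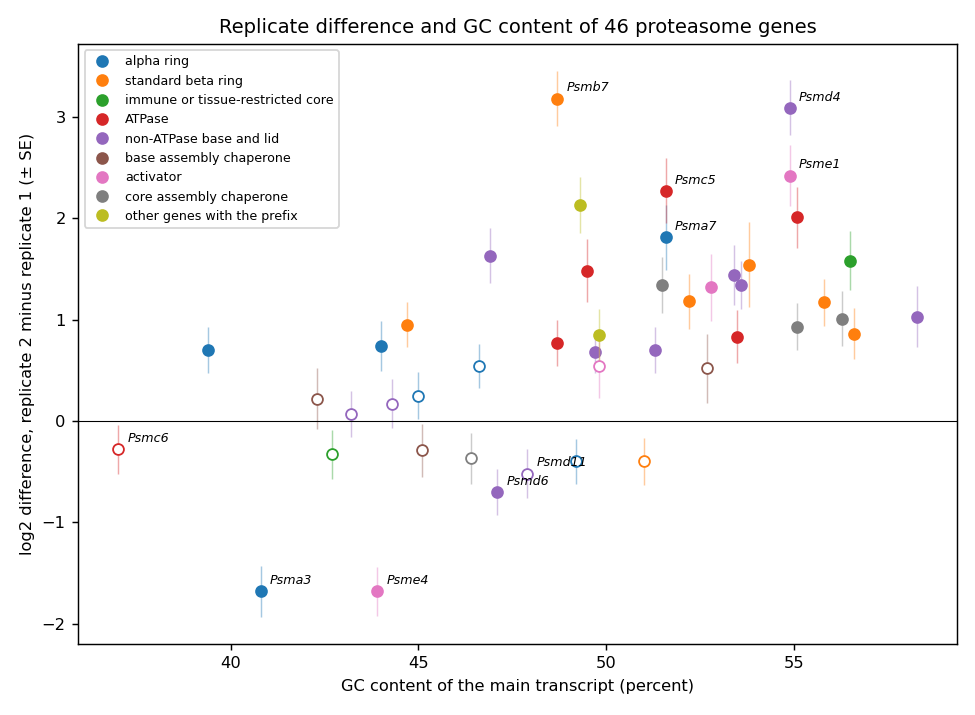
Difference between replicate 2 and replicate 1 in log2(FPKM + 1) with its standard error (vertical) against the GC content in percent of the main transcript (horizontal) for the 46 tested members. Filled points have a limma adjusted p under 0.05. Psmb7 and Psmd4 are the highest points, at 3.18 and 3.09, and Psma3 and Psme4 the lowest, both at -1.68.

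Other genes of the pathway were taken from lists by function. None passed in sh, sd or dd against control. Their counts between the replicate numbers stand beside 46.6% of all genes higher and 14.6% lower, and nothing particular to a list is read from them. Of the subunits and assembly factors with other names, 6 were tested and 3 were higher in replicate 2 (Pomp, Adrm1 and Sem1). Adrm1, a ubiquitin receptor of the base, had 1.57 and 9.94 FPKM in control, 2.99 and 10.5 in sh, 3.74 and 9.87 in sd, and 3.36 and 11.7 in dd, the direction of the receptor Psmd4. All 4 deubiquitinases and ligases that bind the proteasome had differences above 0 in sh, sd and dd. So had 65.5%, 62.9% and 53.6% of all genes, and nothing particular to the 4 is read from it. Of the 4, 3 were lower in replicate 2, Usp14, Ube3c and Ube3a. Usp14, which trims ubiquitin from substrates, had 28.8 and 6.78 FPKM in control, 23.3 and 13.4 in sh, 24.7 and 10.3 in sd, and 28.2 and 14.1 in dd. Uchl5, a further deubiquitinase, had a difference from control of 0.77 in dd (SE 0.60).

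Of the 6 ubiquitin and E1 genes, 4 were higher and 1 lower in replicate 2. Ubb, a polyubiquitin gene, had 113 and 537 FPKM in control, 118 and 642 in sh, 182 and 818 in sd, and 167 and 694 in dd. Of 6 tested genes for transcription factors of the pathway and their processing, 3 were higher and 1 lower in replicate 2. Nfe2l1 had 2.61 and 9.55 FPKM in control, 6.14 and 14.9 in sh, 7.20 and 8.35 in sd, and 4.61 and 6.87 in dd, and its difference from control in sh was 0.79 (SE 0.72). Nfe2l2, which acts on the same promoter element, had 26.8 and 21.5 FPKM in control, 21.1 and 37.0 in sh, 48.9 and 34.7 in sd, and 38.0 and 50.9 in dd. Its difference was 0.75 in sd and 0.85 in dd (SE 0.61).

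Of the 10 tested shuttle and p97 genes, which carry ubiquitinated proteins to the proteasome, 4 were higher and 2 lower in replicate 2. Ubqln4 had 8.80 and 16.4 FPKM in control, 15.6 and 32.9 in sh, 15.5 and 25.6 in sd, and 17.4 and 18.6 in dd, each treated library above its control. Of all genes tested 15% had that order, and nothing particular to Ubqln4 is read from it. Ubqln2 had 17.9 and 5.72 FPKM in control, 19.7 and 11.4 in sh, 40.6 and 10.6 in sd, and 26.3 and 19.9 in dd. On the lower side, Rps27a had a difference of -0.26 in sh (SE 1.13) and Keap1 of -0.40 in sd (SE 0.97). Of 11 tested genes of antigen presentation and the interferon response, which use the immune subunits' products or induce them, 4 were higher in replicate 2 and none lower. Their differences from control were above 0 for 7 in sh, 8 in sd and 4 in dd, beside 65.5%, 62.9% and 53.6% of all genes. The lowest was that of the interferon-induced Ifi27l2a. This gene had 9.76 and 2.95 FPKM in control, 0 and 0.773 in sh, 0 and 0.422 in sd, and 0 and 0.318 in dd. All its treated libraries were below both controls, and the share of all genes with that order is not given here. The peptide transporter gene Tap1, which overlaps Psmb9 on the other strand, had 0.370 and 2.25 FPKM in control, 0.532 and 2.72 in sh, 1.41 and 1.09 in sd, and 0.524 and 0.779 in dd.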

How the data were processed

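The authors deposited 1 table of FPKM per gene and library. Per the submitters' processing notes, CASAVA 1.4 and HISAT2 were used with mm10. Not given in the sources used here are the counting program, the annotation and any use of strand. Reads were recovered from the deposited FPKM values times the union exon length in GENCODE M21 (GRCm38), and 98.3% to 98.9% of low values per library were whole within 0.02 reads. Intervals and floors cover counting error only. Differences were tested on log2(FPKM + 1) with limma 3.58.1 (R 4.3.3), for genes with a mean of at least 1 FPKM, in 1 fit of all 8 libraries without covariates (4 residual degrees of freedom), with a mean-variance trend, two-sided, and Benjamini-Hochberg adjustment over all 14561 genes at 0.05. The replicate number was tested with the group as covariate. The fits were checked on simulated data. The replicate numbers come from the labels. Over the 12 same-numbered pairs of libraries, deviations from group means correlated at 0.75 to 0.89. With 2 libraries a group, the deviations of replicate 2 mirror those of replicate 1. The pairs of replicate 2 therefore repeat the correlations of replicate 1 and add no support of their own. On these correlations the numbers were taken to pair the libraries, and a fit with the number as a block was made.

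The members, gene lists and marker lists were chosen with earlier results of these data known. Values per library are printed for the catalytic, immune and tissue-restricted core genes, the activators, the highest and lowest member of each class, the 3 members of smallest p per direction in each contrast with control, and the 4 largest differences per direction between replicate numbers, with the prefix-only genes. The p used for this choice was that of the fit without the block. For the other lists the 2 genes of smallest p per direction and contrast were taken, of which some are not reported here, and the olfactory receptors, Adrm1, Usp14, Ubb and Tap1 were chosen after their values were seen. Sharing of sequence was measured over 31-base stretches. Alternatives were pseudocounts of 0.1 and 0.5, no filter, a mean minimum of 5 FPKM, median ratio scaling, quantile normalization, the 2 groups alone, the replicate block, and each library left out. Alternatives chosen once the data had been seen were voom weights from the recovered reads, each library left out with the block, levels per kilobase of the main transcript, and the core without Psma5 and Psmb5.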

Additional observations from a re-analysis of the deposited data

How the results depend on the processing

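The count of 0 members against control and between treated groups held under every alternative run. With the replicate block it was also 0 in all 6 comparisons, though 3, 1 and 6 members had an unadjusted limma p under 0.05 in sh, sd and dd (480, 945 and 1310 of all genes). The pairing changed no call. The median difference of the members in sh was 0.17 with quantile normalization, 0.12 with median ratio scaling and 0.36 with voom weights. Leaving out 1 library, its lowest and highest values were -0.32 and 0.74 for sh, -0.17 and 0.84 for sd, and -0.27 and 0.74 for dd. With the block they were 0.14 and 0.42, 0.21 and 0.47, and 0.13 and 0.43. Between replicate numbers, 21 members passed without the filter, and 22 to 30 when 1 library was left out. The members' median there was 0.27 with quantile normalization and 0.20 with median ratio scaling, and 0.77 to 0.90 with a library left out. The ratio of core sums was 0.834 and 0.931 under these scalings. The coefficient of variation in replicate 1 was 80.7% with quantile normalization, 57.7% per main transcript and 83.5% without Psma5 and Psmb5. Of single genes, 18 values turned sign, all with 1 library left out. Without the block, the extremes for Psmg3 were -1.03 and 0.48 (sh), -1.07 and 0.45 (sd), and -1.34 and 0.18 (dd). For Psmb3 they were -1.96 and 1.05 (sd), and -2.03 and 0.97 (dd), for Psmd3 -1.15 and 0.33 (dd), for Psmg4 -0.96 and 0.08 (sd), and for Psma5 -0.42 and 0.09 (sh). With the block, they were -0.61 and 0.06 (sh), and -0.65 and 0.03 (sd) for Psmg3, -1.43 and 0.52 (sd), and -1.53 and 0.46 (dd) for Psmb3, and -1.02 and 0.20 (dd) for Psmd3. Other values above 0 were 0.01 (Psmg3 without sd replicate 2) and 0.44 (Psmb3 in dd without control replicate 2). Psmd11 passed between replicate numbers under quantile normalization (-1.02), median ratio scaling (-1.13) and voom weights (-0.56). The cause was not tested. Control replicate 2 is the shallowest library and Psmb8, Psmb9 and Psmb11 rest on few reads and were not tested.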

Other observations

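The pseudogene copies of core subunits had levels of their own. Psmb6-ps2 had 12.6 to 33.7 FPKM in replicate 1 and 97.7 to 175 FPKM in replicate 2, beside 34.3 to 49.6 FPKM and 95.1 to 111 FPKM of Psmb6. Gm3375, the copy of Psmb5, had 32.0 to 82.1 FPKM and 120 to 178 FPKM. Gm8394, the copy of Psma5, had 12.4 to 23.7 FPKM and 50 to 96.8 FPKM, while Psma5 itself was lower on average in replicate 2 (72.3 against 54.7 FPKM, n = 4 each). Psmb6-ps had 0.878 to 1.31 FPKM and 3.83 to 14.4 FPKM. Psmb7-ps2 had 0 to 0.191 FPKM and 2.33 to 3.89 FPKM, and Psmb5-ps 0 to 0.196 FPKM and 0.307 to 1.52 FPKM. All 6 copies were higher in each replicate 2 library than in each replicate 1 library. Of the 14561 genes tested 41.9% were higher in this way, and nothing particular to the copies is read from it. Psmb7-ps2 and Psmb5-ps were at or near 0 in replicate 1. These genes were chosen for their resemblance to members.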
